A study of Mus musculus with 4 samples.

Results

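B cell and MHC class II genes were followed in mouse CD4 T cells that had been sorted as CD4+CD62L-CD44+, the phenotype of antigen-experienced effector memory cells. The 33 genes were chosen by name. They comprise 17 genes of the B lineage and its antigen receptor, 8 genes of MHC class II presentation and 8 genes that B cells share with other blood cells. Of the 33, 30 had at least 1 of 56 probes in the annotation used here, out of 19057 genes with a probe. Cd79a, Ighm and Lyn had none and were not analysed here.

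Expression was measured in 2 dKO arrays and 2 WT arrays (Illumina bead arrays, total RNA of cells from spleen and lymph nodes). The dKO mice were C57BL/6 Lck-Cre MEKK2 KO MEKK3F/-, and the WT mice were C57BL/6. By this genotype all cells of the dKO mice lacked MEKK2 and carried 1 null allele of MEKK3. Cre under the Lck promoter acts in T lineage cells, so any other cell type in the sort would not be its target. The labels give no age and name no animals, so a p-value here measures only how far the arrays of a group scatter, and that scatter may be technical. Each group had a replicate number 1 and a number 2, and where 2 values of a group are given below they are in that order. The arrays of 1 number shared a distribution of deposited values, with a mean intensity of 119 for number 2 and 86.9 for number 1, so values are compared between numbers only after quantile normalization.

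Between 12763 and 13218 of 45281 probes on an array lay above an intensity of 16, used here as a floor, below which values were set to 16. Of the kinases the study deleted, Map3k3 (MEKK3) was at 204 and 246 in dKO, against 311 and 387 in WT. Xist did not exceed the floor in dKO and was at 327 and 536 in WT, and the Y-linked Eif2s3y was above the floor on the dKO arrays alone, so that sex cannot be told apart from genotype. Of 11 T cell markers with a probe, 10 were above the floor on every array, the exception being Cd5. Cd4 was at 151 and 84.4 in dKO, against 105 and 141 in WT. Cd8a was at the floor on all 4 arrays, while Cd8b1, by its probe of highest mean, was at 691 and 512 in dKO and at 736 and 602 in WT. Another Cd8b1 probe was at 182 and 715 in dKO, against 285 and 922 in WT. The remaining Cd8b1 probe, at 15.1 and 35.8 in dKO, against 27.8 and 47.2 in WT, was also higher in number 2. The direction of Cd8b1 between numbers therefore depends on the probe.

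MHC class II molecules are pairs of an alpha and a beta chain that display peptides to CD4 T cells. B cells, dendritic cells and macrophages make them under the coactivator CIITA, whereas conventional mouse T cells make little. The B cell receptor is a membrane immunoglobulin that signals through CD79A and CD79B, by way of the kinases LYN, BLK, SYK and BTK and the adaptor BLNK, and the lineage is set by EBF1 and PAX5.

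In these sorts the class II genes were above the floor on every array, while 5 of 8 B cell markers with a probe (Ms4a1, Pax5, Ebf1, Fcer2a and Cr2) were at it on all 4. The class II genes other than H2-Ob were higher in replicate number 2 than in number 1 in both genotypes. In dKO they were mostly higher than in the WT array of the same number, by less than they differed between numbers. Cd79b, Blk and Fcmr had another pattern, with dKO 1 lowest, dKO 2 highest and the WT arrays between. No member passed the test of genotype. In such bulk samples more cells of a type and more RNA per cell cannot be told apart.

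CIITA acts at class II promoters through a conserved group of elements that includes the Y box, the reverse CCAAT motif ATTGG bound by NF-Y. The table of RefSeq promoters (GRCm38.p6) held 5 of the 8 class II members (H2-Aa, H2-Eb1, H2-DMa, H2-DMb2 and H2-Ob). On either strand of the 250 bases before the start site, all 5 held ATTGG, which was also in 33.8% of 32851 promoters of that length and in 5 of 14 B lineage members in the table. Here and below a member counts if any of its promoters held the letters, whereas the percentages are of single promoters. Members with several promoters thus had more places for a match. The X box of the same group of elements, searched by 1 consensus of its letters, was in 0 of the 5 and of the 14, and in 4.29% of all promoters. Such a fixed string can miss variants of the X box, so these counts do not show that the element was absent. For H2-DMa the Y box letters ATTGG were in 1 of the gene's promoters, at base −198. The B cell octamer ATGCAAAT was in 1 of 14 B lineage members in the table, Blnk, and in 1.6% of all promoters. The 120 bases before the start of 4 class II genes are printed to set H2-Ob, which did not follow the replicate number, beside 3 that did. They lie at chr17:34287824-34287943 on the minus strand (H2-Aa), chr17:34305747-34305866 on the plus strand (H2-Eb1), chr17:34145129-34145248 on the plus strand (H2-DMb2) and chr17:34238785-34238904 on the plus strand (H2-Ob). Capitals mark ATTGG or its reverse complement CCAAT, and the first base of ATTGG is at −48, −59, −90 and −57 in that order, counted back from the start site. A match is a description of the sequence and not a site of binding.
H2-Aa: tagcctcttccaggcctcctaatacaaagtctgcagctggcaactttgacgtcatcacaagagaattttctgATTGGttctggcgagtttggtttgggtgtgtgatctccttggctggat
H2-Eb1: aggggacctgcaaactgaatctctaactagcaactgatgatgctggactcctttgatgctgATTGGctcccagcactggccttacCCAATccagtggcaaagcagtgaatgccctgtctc
H2-DMb2: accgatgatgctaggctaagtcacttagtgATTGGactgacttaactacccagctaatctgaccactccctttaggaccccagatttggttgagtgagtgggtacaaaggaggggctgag
H2-Ob: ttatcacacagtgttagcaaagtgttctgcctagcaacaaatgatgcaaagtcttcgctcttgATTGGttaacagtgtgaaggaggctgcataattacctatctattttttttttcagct

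The class II chain genes had the order dKO 2, WT 2, dKO 1 and WT 1 from high to low. H2-Aa, the I-A alpha chain, read 269 (dKO 1) and 1719 (dKO 2) in deposited intensity, against 166 (WT 1) and 753 (WT 2). On the normalized log2 scale number 2 exceeded number 1 by 2.23 in dKO and by 1.78 in WT, a mean of 2.00 that was the largest among the 22 members tested. H2-Ab1, the I-A beta chain, was at 1249 and 5449 in dKO, against 1152 and 3315 in WT. Its number 2 arrays lay above both number 1 arrays, by 1.60 in dKO and 0.97 in WT, and its other 2 probes were in the same order. They read 1058 and 2785 in dKO, against 884 and 2105 in WT, and 470 and 1777 in dKO, against 385 and 1327 in WT. H2-Eb1, the I-E beta chain, was at 943 and 3531 in dKO, against 766 and 2234 in WT, and number 2 exceeded number 1 by 1.37 in dKO and 1.04 in WT. In all 3 genes the genotypes overlapped, with WT 2 above dKO 1.

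The genes that load and guide class II molecules followed the chains. Cd74, the invariant chain that occupies the groove until a peptide is loaded, was at 1212 and 4647 in dKO, against 1123 and 2903 in WT. Number 2 exceeded number 1 by 1.41 in dKO and 0.83 in WT, and all 3 probes of Cd74 were higher in number 2 within each genotype. H2-DMa, a chain of the peptide exchanger DM, was at 363 and 924 in dKO, against 361 and 683 in WT, so that the number 1 arrays nearly coincided. Its second probe, at 168 and 599 in dKO, against 175 and 413 in WT, put dKO 1 below WT 1, so the place of H2-DMa in this order depends on the probe. H2-DMb2, its beta chain, was at 135 and 315 in dKO, against 122 and 227 in WT, with a difference between numbers of 0.86 in dKO and 0.56 in WT. Its second probe was in the same order. H2-DMb2 and H2-DMb1 are near-identical, so their probes may read each other's transcripts and both values are uncertain.

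Ciita, the transactivator, had 1 probe above the floor on every array, at 48.0 and 146 in dKO, against 29.5 and 73.2 in WT. It had the order of the chain genes, and number 2 exceeded number 1 by 1.32 in dKO and 1.07 in WT. Its other probe was above the floor on dKO 2 alone, at 18.0. H2-Ob, the beta chain of DO, which restrains DM and is made mainly in B cells, was the exception, at 56.1 and 109.5 in dKO, against 77.2 and 70.1 in WT. Here dKO 1 was lowest and dKO 2 highest, as in Cd79b below, and both numbers overlapped.

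**Figure D1:**
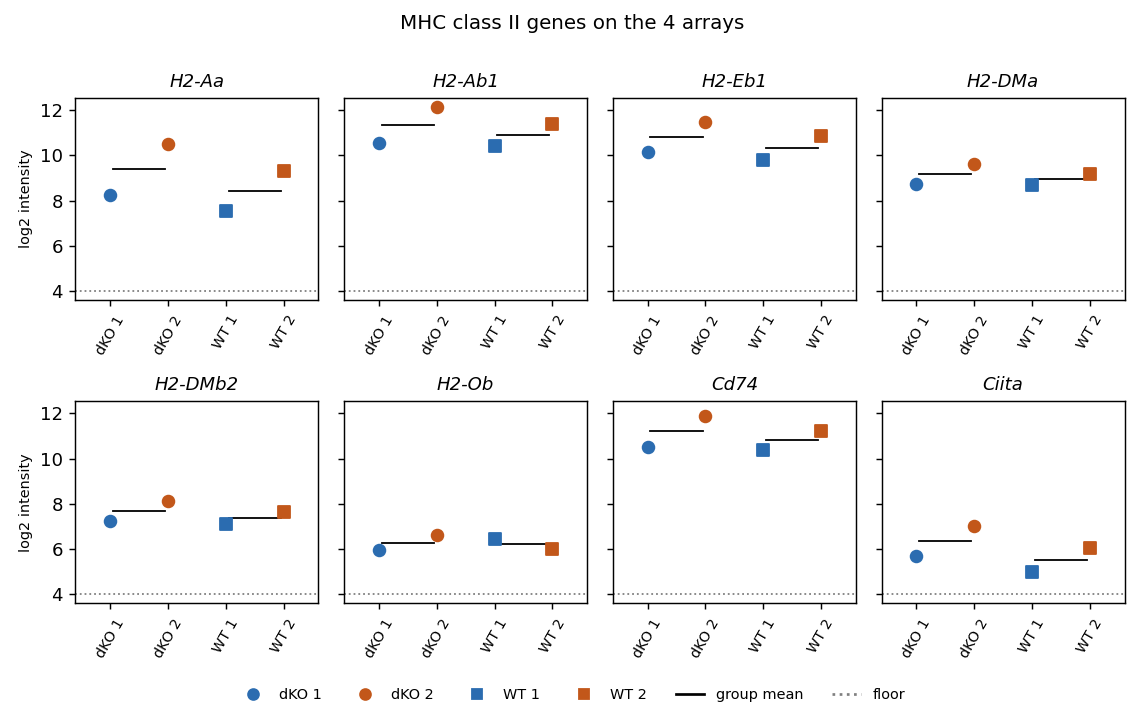
Normalized log2 intensity (y axis) of the 8 class II members on each array (x axis), with dKO as circles left of WT as squares, number 1 in blue and number 2 in orange, group means as lines and the floor dotted. In 7 of the 8 genes both orange points lie above both blue points, and H2-Ob is the exception.

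Counted over the class II members, 7 of 8 had both arrays of number 2 above both of number 1 and 0 had them below. Over all 10413 features tested, 25.7% had them above and 26.4% below. At least 2-fold higher in number 2 as well were 5 of the 8 (H2-Aa, H2-Ab1, H2-Eb1, Cd74 and Ciita), against 2.51% of features. The order dKO 2, WT 2, dKO 1, WT 1 was shared by 7 of the 8 and by 8.39% of features. The median difference of number 2 from number 1 was 1.16 (1.34 in dKO and 0.90 in WT, log2), against 0.00 over all features. These are descriptions without a test, since the numbers are another split of the same 4 arrays. The difference was also seen without the quantile normalization made here. On the deposited values 7 of 8 members were higher in number 2, against 48.4% of features. There the median of all features above the floor on every array itself shifted by 0.33, and the class II median exceeded it by 1.23. The deposited values already shared a distribution within each number, and the part of any scaling before deposit was not tested.

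The 7 genes of that order lie on 3 chromosomes, with Cd74 on 18, Ciita on 16 and the others in the MHC on 17 (RefSeq, GRCm38.p6). When the variation of a gene over the 4 arrays was split into genotype, number and their interaction, the median share taken by number was 82.3% over the 8 class II members, 52.2% over 5 B lineage members, 32.6% over 5 broader members and 53.7% over the 8427 features, all counted where every array was above the floor. The median share of the interaction, a genotype difference that changed with the number, was 4.42%, 22.3%, 48.8% and 8.81% in that order. With a single array of each genotype and number, such a difference cannot be told apart from scatter between arrays.

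By genotype, the class II members differed less than by number in 8 of 8 cases, against 63.1% of features. All 8 were higher in dKO 2 than in WT 2, with a median of 0.67, and 7 of 8 were higher in dKO 1 than in WT 1, with a median of 0.13. Higher in dKO in both numbers were 7 of 8, against 27.6% of features. None of the 8 was without overlap between the groups, a state that 12.7% of features had with dKO above WT and 13.5% with dKO below. H2-Aa averaged 9.38 ± 1.57 in dKO and 8.44 ± 1.26 in WT (log2, SD, n = 2 each), a difference of 0.94 with a standard error of 0.96. Ciita averaged 6.37 ± 0.93 in dKO and 5.52 ± 0.75 in WT, a difference of 0.85 with a standard error of 0.63. For H2-Aa the difference was smaller than the SD of either group, and for Ciita it lay between the SDs of the groups. Limma's test called none of the 22 members that could be tested, higher or lower, against 0% of features (0 of 10413). Each member had an adjusted p of 0.9997 by limma. Before adjustment, 0 of 22 members and 3.43% of features were under 0.05.

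When the replicate number was added as a block, limma again called 0 of 22 members, against 0.144% of features (15 of 10413). The lowest adjusted p among the members was then 0.190, for H2-Aa, whose standard error fell to 0.16. At an unadjusted p under 0.05 limma with the block gave 3 of 22 members, H2-Aa, Ciita and H2-Eb1, all higher in dKO, against 11.5% of features in either direction. H2-Aa was 2.28 times as high in dKO as in WT in number 2 and 1.62 times in number 1, and Ciita was 2.00 times as high in number 2 and 1.63 times in number 1. That fit leaves 1 residual degree of freedom, and the labels do not say that a number pairs the arrays. The class II median was 0.41 (dKO minus WT). It was 1.14 without dKO 1, −0.21 without dKO 2, 0.01 without WT 1 and 0.86 without WT 2. With an array left out the groups hold unequal numbers 1 and 2, so the difference by number enters these medians. They therefore do not show whether the difference by genotype rests on single arrays. Within numbers the median was 0.13 in number 1 and 0.67 in number 2.

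**Figure D2:**
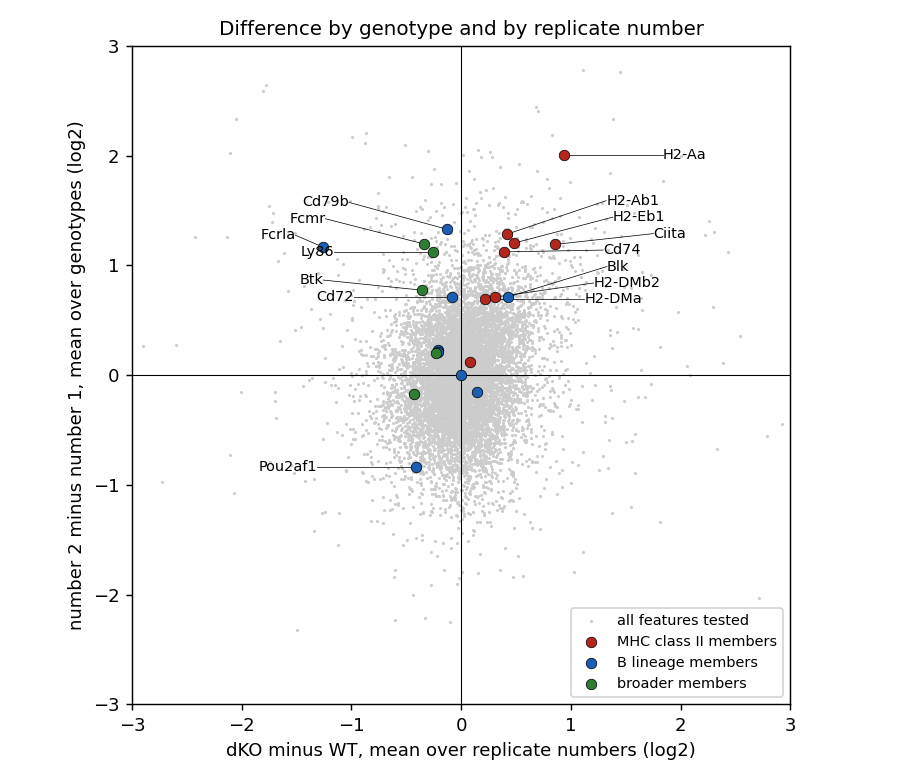
Difference dKO minus WT (x axis, log2, mean over replicate numbers) against difference number 2 minus number 1 (y axis, log2, mean over genotypes) for all features in grey and the tested members in colour, with 10 features beyond an axis limit of 3 not drawn. The class II members other than H2-Ob lie at 0.69 or more on the y axis, and none of the 8 exceeds 0.94 on the x axis.

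Of the 15 B lineage members with a probe, 6 were at the floor on all 4 arrays, 4 exceeded it on some arrays and 5 on every array. Ms4a1 (CD20), the lineage factors Pax5 and Ebf1, the scaffold Bank1, the low affinity IgE receptor Fcer2a (CD23) and the complement receptor Cr2 (CD21) did not exceed it with any probe. Their highest deposited values were 11.7 for Ms4a1, 8.83 for Pax5, 10.3 for Ebf1, 9.63 for Bank1, 15.6 for Fcer2a and 6.31 for Cr2. Among members shared with other cells, the kinase Syk and the surface glycoprotein Cd24a were at the floor as well. A value at the floor does not show that a transcript was absent. In all, 22 members passed the filter of 1 array above the floor and 8 did not. Just outside it was Fcer2a and just inside it Spib, an ETS factor of B cells, at 3.40 and 16.1 in dKO, against 5.45 and 13.6 in WT.

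Cd79b, the signalling chain of the B cell receptor, was above the floor on every array, at 27.9 and 263 in dKO, against 90.5 and 91.0 in WT. The WT arrays lay together, with the dKO arrays below and above them. Its dKO over WT ratio was 2.89 in number 2 and 0.308 in number 1. The second probe gave 24.9 and 140 in dKO, against 89.6 and 56.1 in WT, with ratios of 2.50 and 0.278. The mean difference of −0.12 (6.38 ± 2.09 in dKO and 6.51 ± 0.21 in WT, log2, SD, n = 2 each) was far smaller than the spread of the dKO arrays.

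Blk, a Src family kinase of the receptor, was at 14.6 and 54.5 in dKO, against 21.3 and 20.5 in WT, in the same order, and its second probe exceeded the floor on dKO 2 alone, at 29.6. Cd72, an inhibitory coreceptor, was at 62.5 and 166 in dKO, against 85.8 and 134 in WT, so that dKO 1 was again lowest and dKO 2 highest, and number 2 was above number 1 throughout. Fcrla, an intracellular Fc receptor-like protein of B cells, was at 15.01 and 93.6 in dKO, against 81.0 and 95.6 in WT. Its 4 probes were all at the floor on dKO 1 and above it on the other 3 arrays. The difference of −1.26 for Fcrla therefore rests on 1 array, and within number 2 it was −0.03.

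The remaining B lineage members varied less or in another way. Pou2af1, the coactivator OBF-1 that works with octamer factors and is also made in T cells, was at 130 and 88.7 in dKO, against 168 and 121 in WT. It was the only B lineage member lower in number 2 than in number 1 without overlap, by 0.86 in dKO and 0.81 in WT, and it was lower in dKO within each number. Cd22, an inhibitory lectin, was at 36.3 and 48.3 in dKO, against 40.4 and 58.4 in WT, a difference of −0.21 with a standard error of 0.28. Fcrl1 was at 31.99 and 28.9 in dKO, against 25.3 and 30.2 in WT, with its other probe above the floor in the opposite order by genotype. Blnk, the adaptor, was at the floor except for 22.7 on WT 2, so its difference rests on a single array near the floor.

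Over the 9 B lineage members tested, 1 was lower in dKO without overlap (Fcrla, by 0.03 between dKO 2 and the nearer WT array) and 0 were higher, against 13.5% and 12.7% of features. By number, 2 were higher in number 2, 1 lower and 6 overlapped, against 25.7% of features higher and 26.4% lower. The median difference dKO minus WT was −0.03 in number 2 and −0.38 in number 1. The median difference of number 2 from number 1 was 0.22, and it was 0.41 at floor 8, 0.49 at floor 32, 0.48 with log2(value + 16) and −0.0056 to 0.63 with an array left out.

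Members shared with other blood cells included genes with the pattern of Cd79b. Fcmr (Faim3 in older annotation), the Fc receptor for IgM, was at 25.8 and 230 in dKO, against 101 and 88.5 in WT, with a dKO over WT ratio of 2.59 in number 2 and 0.256 in number 1. Ly86 (MD-1), the partner of CD180, was at 51.1 and 213 in dKO, against 93.0 and 164 in WT. Btk, the Tec kinase of the receptor, was at 17.4 and 48.9 in dKO, against 31.2 and 43.5 in WT. In all 3, dKO 1 was lowest and dKO 2 highest. Cd37, a tetraspanin of lymphocytes, was at 215 and 397 in dKO, against 304 and 378 in WT. Cd86, a ligand of CD28 on antigen-presenting cells, was at 76.8 and 127 in dKO, against 154 and 113 in WT, and its 3 probes were all lower in dKO within number 1, with ratios from 0.475 to 0.507. Within number 2 one of them was lower in dKO as well, with a ratio of 0.692, and the others higher.

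**Figure D3:**
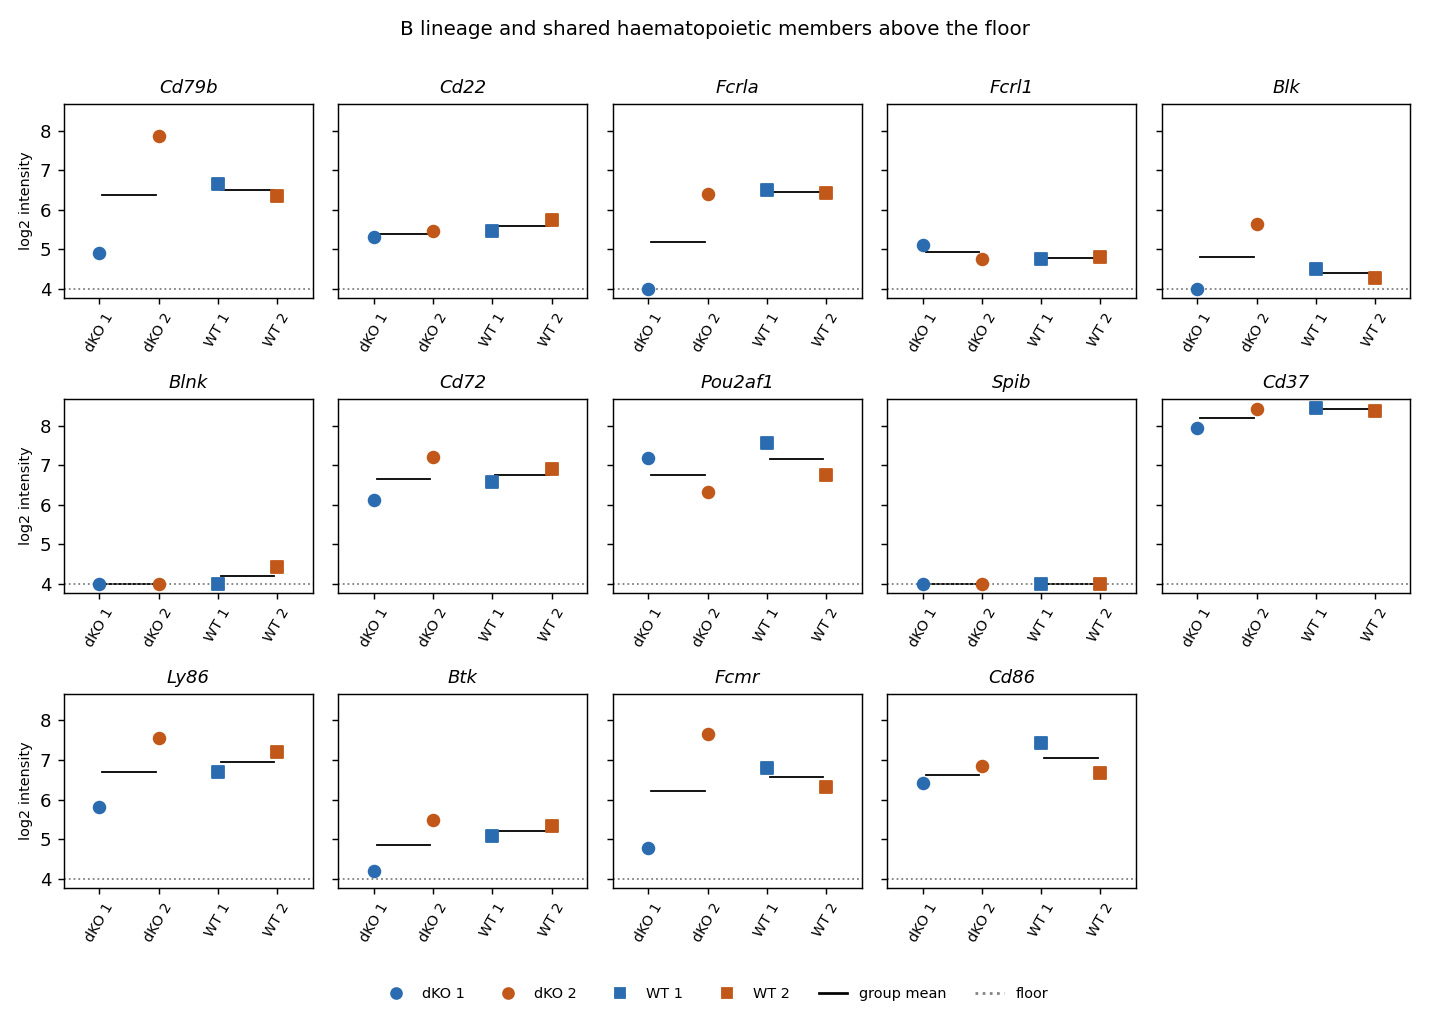
Normalized log2 intensity (y axis) of the 9 B lineage and 5 broader members tested on each array (x axis), with dKO as circles left of WT as squares, number 1 in blue and number 2 in orange, group means as lines and the floor dotted. In Cd79b, Blk, Cd72, Ly86, Btk and Fcmr the dKO 1 point is lowest and the dKO 2 point highest.

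The state with dKO 1 lowest and dKO 2 highest was counted after these values had been seen. It held for 3 of 9 B lineage members, 3 of 5 broader members and 1 of 8 class II members, against 6.69% of features. All 5 broader members were lower in dKO within number 1 and higher within number 2, against 15.5% of features, with medians of 0.17 in number 2 and −0.88 in number 1. In these genes the genotypes differed in opposite directions in the 2 numbers. The direction of the broader median, −0.34 over both numbers, turned without dKO 1 (0.29), where dKO holds number 2 alone.

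**Figure D4:**
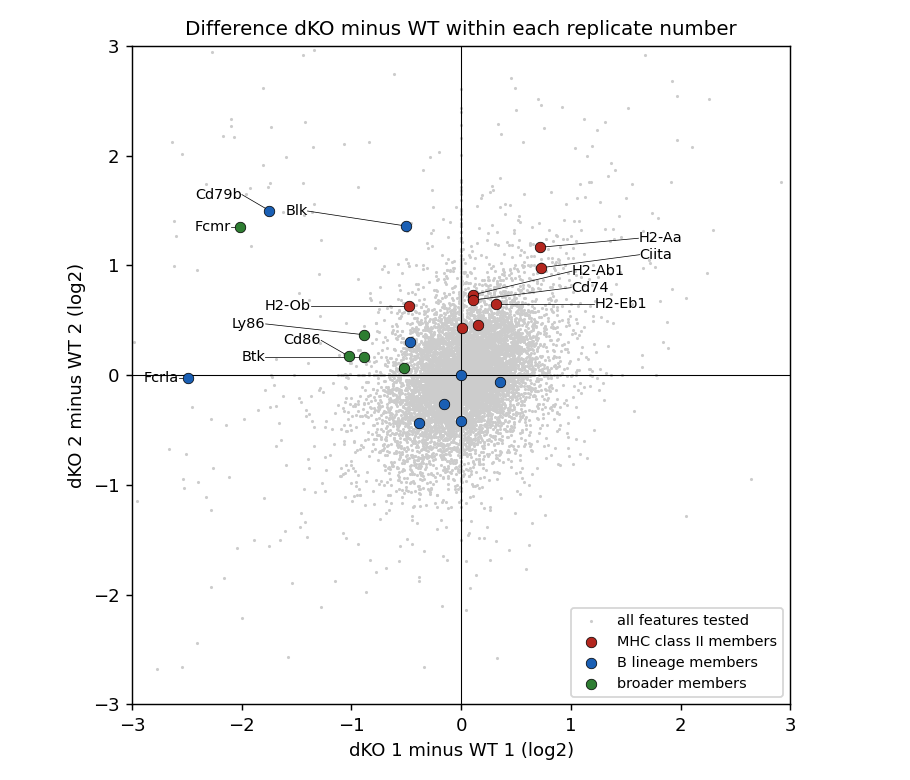
Difference dKO minus WT on the log2 scale within number 1 (x axis) and within number 2 (y axis) for all features in grey and the tested members in colour, with 42 features beyond an axis limit of 3 not drawn. Cd79b, Fcmr and Blk lie in the upper left, with Blk at −0.50 in number 1 and 1.36 in number 2, and the class II members other than H2-Ob lie at or right of 0.01 in number 1.

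Other genes of class II presentation gave a mixed picture. Of 21 on the list all had a probe and 19 were tested, of which 4 were higher in dKO and 1 lower without overlap, 4 were higher and 3 lower in number 2, and limma called 0 (0 of 19 also at an unadjusted p under 0.05, and 2 with the block). Over all features the shares without overlap were 12.7% and 13.5% by genotype and 25.7% and 26.4% by number, and 11.5% were under 0.05 with the block. H2-Oa, the DO alpha chain, was at 166 and 546 in dKO, against 146 and 367 in WT, in the order of the class II chains. H2-DMb1 was at 58.7 and 213 in dKO, against 69.6 and 123 in WT. Ifi30 (GILT), a thiol reductase of the presentation pathway, was at 76.4 and 377 in dKO, against 118 and 240 in WT, and Ctss, the cathepsin that trims the invariant chain, at 35.9 and 102 in dKO, against 44.1 and 44.4 in WT. The ligase Marchf1, which removes class II from the surface, was above the floor on dKO 2 alone, at 49.0. The factors Nfyc and Rfxap differed between numbers by 0.52 or less within each genotype.

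Of 37 other B cell genes, 33 had a probe and 29 were tested. Without overlap 2 were higher and 4 lower in dKO, 11 were higher and 7 lower in number 2, and limma called 0 (0 of 29 at an unadjusted p under 0.05, and 4 with the block, Napsa and Cd40 higher and Irf8 and Tcf4 lower in dKO). The same shares over all features (12.7%, 13.5%, 25.7%, 26.4% and 11.5%) stand against these counts. Cd40, the receptor for CD40 ligand, was at 42.5 and 110 in dKO, against 22.3 and 45.4 in WT, a difference of 1.10. Irf8, a factor of B cells and dendritic cells, was at 30.3 and 143 in dKO, against 89.3 and 256 in WT, a difference of −1.21. Tcf4, an E protein of both B cells and plasmacytoid dendritic cells, was at 62.3 and 210.2 in dKO, against 190.0 and 321 in WT. Plcg2, the phospholipase of the B cell receptor, was at 47.2 and 226 in dKO, against 69.3 and 138 in WT, and Cd180 at 9.12 and 35.4 in dKO, against 12.9 and 31.4 in WT.

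The summed levels of cell type markers stand here beside the class II genes. The summed normalized intensity of the 8 class II members was 5049 and 13976 in dKO, against 4485 and 8510.3 in WT, so number 2 was 2.77 times number 1 in dKO and 1.90 times in WT. The sum of the 3 B cell markers tested, of 8 with a probe, was 85.5 and 326 in dKO, against 167 and 155 in WT, ratios of 3.82 in dKO and 0.925 in WT. On dKO 2 it came mostly from Cd79b, at 263 in deposited intensity, with Blk at 54.5 and Cd22 at 48.3. Cd22 was lower in dKO within each number, with dKO over WT ratios of 0.899 in number 1 and 0.827 in number 2. The sum of the 11 dendritic cell and macrophage markers tested, of 16 with a probe, was 1339 and 2562 in dKO, against 1655 and 1787 in WT, ratios of 1.91 and 1.08. Among these, Itgax, Itgam, Flt3, Fcgr1 and Mertk were at the floor on all 4 arrays, and Adgre1 was at 40.7 and 131 in dKO, against 17.9 and 26.8 in WT. Some other markers of these cells were lower in WT 2 than in WT 1. Lyz2 was at 176 and 417 in dKO, against 309 and 91.8 in WT. Its other probe above the floor was at 40.6 and 191 in dKO, against 37.1 and 32.1 in WT. C1qb was at 90.1 and 132 in dKO, against 66.1 and 19.0 in WT, and C1qc at 48.6 and 86.5 in dKO, against 38.9 and 11.02 in WT. Cst3 and Batf3 were instead higher in number 2 in both genotypes. Cst3, the highest of these markers on every array, was at 674 and 1816 in dKO, against 698 and 1233 in WT. Batf3 was at 23.2 and 39.8 in dKO, against 23.5 and 35.8 in WT. Siglech, of plasmacytoid dendritic cells, was at 45.6 and 236 in dKO, against 213 and 572 in WT. The T cell sum was 19478 and 16516 in dKO, against 17521 and 18480 in WT, with ratios of 0.848 and 1.05. The part of these cells in the class II values was not tested.

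**Figure D5:**
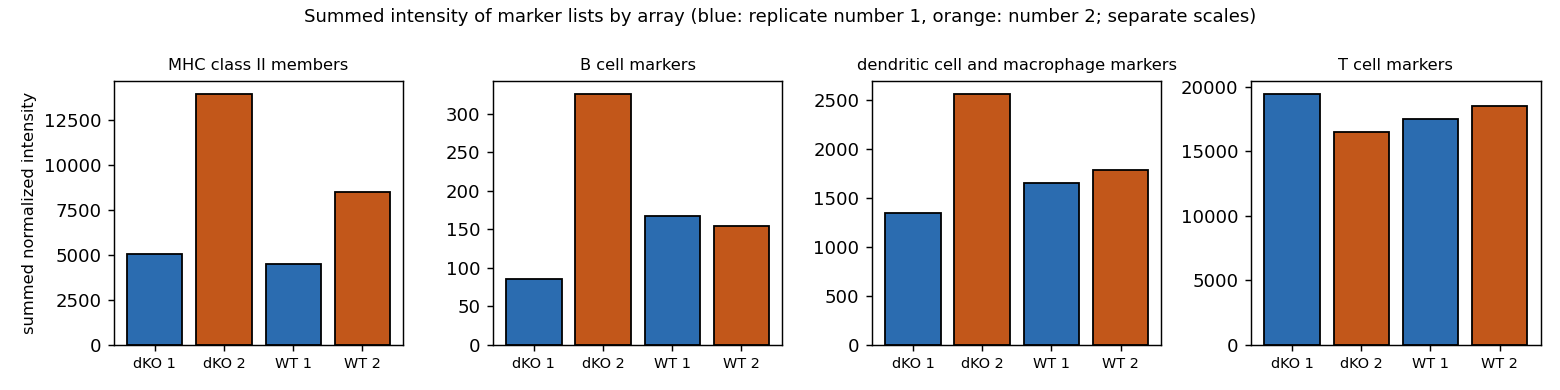
Summed normalized intensity (y axis, linear, from 0, a separate scale in each panel) of 4 gene lists on each array (x axis, dKO left of WT), with number 1 in blue and number 2 in orange. The class II bars are tallest on the number 2 arrays, the B cell and myeloid bars on dKO 2, and the T cell bars run from 16516 to 19478.

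Plasma cell and red cell markers were set beside the B lineage in the same way. Of 8 plasma cell markers 3 were tested, and Sdc1, Prdm1, Jchain, Tnfrsf17 and Derl3 were at the floor on all 4 arrays. Mzb1, of plasma cells and some B cells, was at 28.6 and 189 in dKO, against 145 and 95.6 in WT, so that dKO 1 was lowest and dKO 2 highest. Xbp1 was at 530 and 920 in dKO, against 430 and 808 in WT, and Irf4 at 119 and 190 in dKO, against 140 and 240 in WT, and neither had that order. The 3 red cell genes tested were called higher in dKO by limma with the block (adjusted p from 0.00741 to 0.0176) and not without it (0.937 to 0.955), with Hbb-bs at 280 and 1701 in dKO, against 20.1 and 43.4 in WT. Of NK and CD8 cell markers 4 of 8 were tested, and their sum was 975 and 687 in dKO, against 1514 and 862 in WT. Cd8b1, the highest of them on every array, enters this sum by 1 probe, which was lower in number 2 in both genotypes. Another of its probes was higher in number 2, by 1.57 in dKO and 1.27 in WT (log2), so the direction of the sum between numbers depends partly on that probe.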

How the data were processed

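The deposited probe intensities are linear and, from their values below 0, background-subtracted. The sources used here do not give the authors' software or normalization. Sorted values of the arrays of 1 replicate number agree within 0.0846. The non-normalized table was left out, since none of its 8 columns bears a name found in the labels, and with it every detection p.

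Values under 16 were set to 16, and log2 values were quantile normalized across all 4 arrays. Probes above the floor on at least 1 array were kept (14673 of 45281). A gene is represented by the kept probe with the highest mean. With 2128 unnamed probes this made 10413 features. In GEO's platform annotation 34885 probes had 1 symbol, 18 had several and 10378 had none. The genotype test was limma 3.58.1 (R 4.3.3, eBayes with trend), two-sided, adjusted by Benjamini-Hochberg over all features, threshold 0.05, without a block (2 residual degrees of freedom). The fits were tested on simulated data. Deviations of same-numbered arrays correlated at 0.472. The members and lists were chosen with earlier results of these data known. Any member or listed gene may be named, and Map3k3, Xist, Eif2s3y and the order of arrays were chosen after their values were seen.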

Additional observations from a re-analysis of the deposited data

How the results depend on the processing

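Members called numbered 0 higher and 0 lower by limma in each of 14 alternatives, with adjusted p values from 0.163 to 1. Features called were 3 higher and 1 lower with log2(value + 16), the same counts with medians equalized, 57 and 39 with no filter, and 10 and 5 with the replicate block, which changed no member's call. The median difference of number 2 from number 1 over B lineage members was 0.41 at floor 8, 0.49 at floor 32, 0.48 with log2(value + 16), 0.47 on the deposited values, 0.00 with no filter, and −0.0056 to 0.63 with an array left out. The class II median by number was 1.56 on the deposited values. The class II median by genotype ran from −0.21 to 1.14 with an array left out. Of 299 member values 25 had another sign, among them Btk at floor 32 (0.083) and Spib with log2(value + 16) (−0.019). With an array left out the differences by genotype ran from −0.17 to 2.07 (H2-Aa), −0.37 to 1.22 (H2-Ab1), −0.20 to 1.18 (H2-Eb1), −0.31 to 1.10 (Cd74), −0.23 to 0.67 (H2-DMa), −0.12 to 0.74 (H2-DMb2), −0.25 to 0.42 (H2-Ob), −1.59 to 1.36 (Cd79b), −0.36 to 1.26 (Blk), −0.63 to 0.48 (Cd72), −0.034 to 0.32 (Fcrl1), −0.85 to 0.021 (Pou2af1), −1.76 to 1.11 (Fcmr), −1.12 to 0.62 (Ly86), −0.99 to 0.29 (Btk) and −0.47 to 0.019 (Cd37). With an array left out its group keeps 1, taken to vary like the other group, and the groups then hold unequal numbers 1 and 2. The cause of the other changes was not tested. The number of arrays limits the precision, and values near the floor have no order.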
